A study of Mus musculus with 8 samples.

Results

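The comparison set mouse pre-B cells carrying the fusion TCF3-ZNF384 against the same kind of cells carrying full-length ZNF384. Its members were 4 of the 8 RNA-seq libraries of the series, taken by their labels, with 2 libraries a side, and all 32499 genes of the count table were read. The cells came from the bone marrow of C57BL/6 mice and were Arf-/-, a loss that every group shares, controls included. Lentivirus delivered HA-tagged ZNF384 (labelled as the wild type), HA-tagged TAF15-ZNF384 or HA-tagged TCF3-ZNF384, and the control group received the empty vector. Cells positive for GFP were sorted, total RNA was extracted, and the series design calls the replicates biological. Neither the promoter that drives the constructs, nor the age of the mice, nor whether cultures came from separate animals is given in the sources used here, so p-values measure the spread between these cultures. The empty vector and TAF15-ZNF384 libraries, 2 each, are given beside the comparison and share the model that estimates the spread.

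ZNF384 is a zinc finger transcription factor that binds A-rich DNA, and its gene is fused to TCF3, TAF15, EP300 and other partners in acute leukaemia of B-cell precursors, often with some myeloid features. TCF3 encodes the E proteins E12 and E47, which drive early B-cell genes, the recombinase genes among them, by binding E-box sequences, and the fusion joins the activating part of TCF3 to ZNF384. Pre-B cells divide under interleukin 7 and pre-B cell receptor signals, then leave the cycle and recombine their light-chain genes.

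Total counts were 41483660 and 20298726 for full-length ZNF384 replicates 1 and 2, and 9583008 and 17876711 for TCF3-ZNF384 replicates 1 and 2. The share taken by 5 abundant non-coding RNA genes was 10.9 and 12.5% with full-length ZNF384, 18.5 and 24.5% with TCF3-ZNF384, and 27.2 to 33.2% in the other 4 libraries. With those 5 genes removed before scaling, the comparison called 5938 genes in place of 5916. The 36 B lineage markers summed to 11590 and 12130 CPM (normalised counts on TMM-scaled library sizes) with full-length ZNF384 and to 10550 and 10640 with TCF3-ZNF384. Pax5, the factor that commits cells to the B lineage, was at 926 and 968 against 978 and 1024 CPM. Of 30 myeloid markers 7 passed the filter on low counts, and the list summed to 93.3 and 114.5 CPM against 97.9 and 98.2, with 7 markers at 0 in all 4 libraries, among them Elane, Ctsg, S100a8 and S100a9. The 22 T and NK cell markers summed to 696.2 and 687 CPM against 530.7 and 569.1, mostly from Lat, Zap70 and Thy1, with Cd8a, Gata3 and Nkg7 at 0. Erythroid and megakaryocyte markers summed to 57.4 and 38.7 CPM against 26.1 and 25.7, with Gata1 at 0. Stromal markers summed to 115.7 and 96.4 CPM against 39.7 and 44.7, nearly all from Thy1, with Pdgfrb and Dcn at 0. In bulk RNA, fewer cells of a type and less RNA per cell cannot be told apart.

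Counts of Zfp384, the mouse ortholog (mm9 chromosome 6, 124959163 to 124987883, protein coding), were at 51.1 and 90.2 CPM with full-length ZNF384 and at 511 and 450 CPM with TCF3-ZNF384. The 24.0 and 21.6 CPM of the empty vector libraries are the background from the mouse gene, and both construct groups stood above it. The difference between the constructs was a log2 fold change of 2.77 ± 0.25 (SE, edgeR quasi-likelihood test, adjusted p = 7.13e-05). The counts do not separate construct from endogenous transcripts, and construct level and protein form cannot be told apart in this design. Tcf3, whose counts may also hold reads of the fusion construct, was at 62.8 and 75.2 CPM against 98.9 and 105, a log2 fold change of 0.57 ± 0.10 (adjusted p = 0.000632). With TAF15-ZNF384 it was at 96.1 and 93.9 CPM, and the difference between the fusions did not pass (0.10 ± 0.11, adjusted p = 0.629). Cdkn2a, whose products include Arf and which the counts do not split by product, was at 59.0 and 79.3 against 94.6 and 100 CPM (0.50 ± 0.13, adjusted p = 0.00529; 0.31 without full-length ZNF384 replicate 1). Taf15 was at 32.3 and 30.4 against 21.8 and 23.4 CPM (−0.47 ± 0.12, adjusted p = 0.00512), a call lost without TCF3-ZNF384 replicate 1 (−0.40, adjusted p = 0.0584) and with library totals as the scale (−0.301, adjusted p = 0.0569).

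The transcriptomes of the 2 groups differed widely. Of 12970 genes tested, 5916 differed past an adjusted p of 0.05 (45.6%), with 2883 higher (22.2%) and 3033 lower (23.4%) in TCF3-ZNF384 cells. These shares are the background for every count of list members given below. Large changes lay mostly on the higher side. At least 2-fold differences held for 1203 genes that rose and 637 that fell, and at least 8-fold differences for 299 and 35. Changes below 1.5-fold made up 2273 of the calls. The libraries of the 2 groups did not overlap for 5910 of the called genes, against 72.8% of all genes tested. Among the called genes, 292 of the higher and 358 of the lower have no proper name, 26 of the higher had no count with full-length ZNF384 and 4 of the lower had none with TCF3-ZNF384. Against the empty vector, 33.3% of all tested genes differed with TCF3-ZNF384 (16.2% higher, 17% lower) and 20.6% with full-length ZNF384 (10.8% higher, 9.87% lower). Between TCF3-ZNF384 and TAF15-ZNF384, 10.1% differed (5.91% higher, 4.17% lower). Without TCF3-ZNF384 replicate 2, 3866 genes differed and 1932 were lower. When library totals outside the 5 non-coding genes set the scale, the median of all genes moved by 0.176 on the log2 scale and 3930 genes were higher and 2064 lower, 65.6% higher in place of 48.7%.

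**Figure D1:**
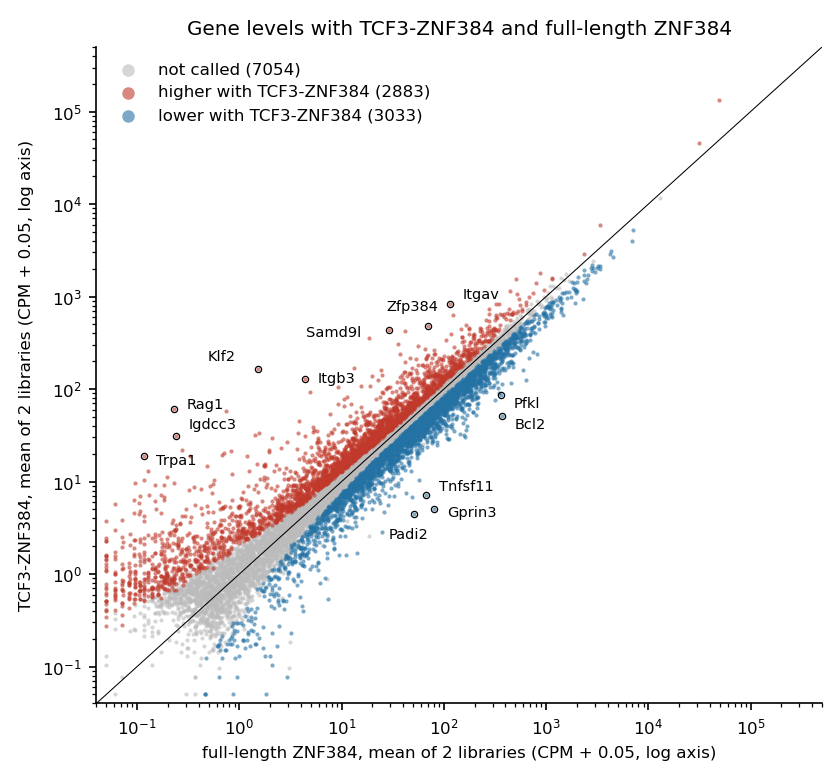
Mean CPM of the 2 full-length ZNF384 libraries (horizontal) and of the 2 TCF3-ZNF384 libraries (vertical) for the 12970 genes tested, each with 0.05 added and on log axes, with the diagonal marking equal levels. The 2883 red points lie above the diagonal and reach farther from it than the 3033 blue points below it, with Rag1, Trpa1 and Igdcc3 far to the upper left.

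Rag1, which encodes the catalytic subunit of the recombinase that cuts antigen receptor genes, had the largest change among the genes of at least 5 CPM. It was at 0.138 and 0.218 CPM with full-length ZNF384 and at 67.6 and 55.1 CPM with TCF3-ZNF384. Both TCF3-ZNF384 libraries were far above the other 6, which reached 0.547 CPM with the empty vector and 9.31 CPM with TAF15-ZNF384. The log2 fold change over full-length ZNF384 was 8.47 ± 0.28 (adjusted p = 1.37e-10), and 2.94 ± 0.19 over TAF15-ZNF384 (adjusted p = 6.45e-07). The gene lies on mm9 chromosome 2 from 101478439 to 101489658. Its neighbour Rag2 (101464875 to 101472685), the other recombinase subunit, was at 0.0917 and 0.0874 CPM against 1.10 and 1.13, a log2 fold change of 3.55 ± 0.71 (adjusted p = 0.00109). The level reached by Rag2 was thus far below that of Rag1 in CPM, which is not corrected for transcript length. Rag2 stood at 1.96 and 1.38 CPM with TAF15-ZNF384 (difference −0.57 ± 0.58, adjusted p = 0.611).

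The A-rich run AAAAAAAA, after the letters that ZNF384 prefers, and the E-boxes CAGGTG and CAGCTG were searched on both strands in RefSeq promoter windows (GRCm38.p6), 250 bases before to 50 after each gene start. A window was found for 9041 of the tested genes. The 250 bases before the start are shown, 5′ to 3′ on the gene's strand with every match in capitals, for Rag1 (chr2:101649533-101649782, minus strand), Samd9l (chr6:3399572-3399821, minus) and Il2ra (chr2:11642542-11642791, plus), which rose, and for Bcl2 (chr1:106714291-106714540, minus), which fell.
Rag1: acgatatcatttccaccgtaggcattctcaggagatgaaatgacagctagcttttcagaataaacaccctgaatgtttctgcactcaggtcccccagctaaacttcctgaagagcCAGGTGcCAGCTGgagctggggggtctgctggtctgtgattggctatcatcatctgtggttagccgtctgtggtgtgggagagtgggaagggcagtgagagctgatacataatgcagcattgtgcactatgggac
Samd9l: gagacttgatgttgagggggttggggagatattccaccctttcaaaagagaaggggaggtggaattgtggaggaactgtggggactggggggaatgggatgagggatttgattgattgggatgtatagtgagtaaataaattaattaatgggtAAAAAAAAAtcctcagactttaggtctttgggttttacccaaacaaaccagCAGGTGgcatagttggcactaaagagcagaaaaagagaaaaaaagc
Il2ra: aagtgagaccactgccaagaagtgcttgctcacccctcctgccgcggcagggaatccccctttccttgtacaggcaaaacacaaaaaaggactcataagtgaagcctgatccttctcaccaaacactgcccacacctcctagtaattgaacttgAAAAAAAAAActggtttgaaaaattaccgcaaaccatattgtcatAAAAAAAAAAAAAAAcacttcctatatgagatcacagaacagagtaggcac
Bcl2: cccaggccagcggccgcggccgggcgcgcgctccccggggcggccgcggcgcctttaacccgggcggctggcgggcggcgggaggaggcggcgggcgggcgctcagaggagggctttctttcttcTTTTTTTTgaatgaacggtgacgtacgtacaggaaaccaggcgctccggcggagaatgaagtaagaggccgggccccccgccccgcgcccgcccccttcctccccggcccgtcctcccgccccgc
Rag1 holds the E-boxes CAGGTG and CAGCTG, separated by 1 base, Samd9l an A run and a CAGGTG, Il2ra a pair of A runs and Bcl2 an A run on the other strand. The genes shown were picked from the named genes without a rule, so their matches do not represent the sets counted next. The A run was in 7.33% of windows of all tested genes, in 8.72% of those of higher genes (187 of 2145) and in 7.02% of those of lower genes (146 of 2081). CAGGTG was in 20.3, 22.2 and 18.5% of the same 3 sets, and CAGCTG in 17.6, 19.1 and 14.6%. Over all 27025 windows of the RefSeq table the shares were 8.94, 22.6 and 18.3%. A match is a description of letters and not of binding.

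A receptor pair for matrix proteins rose together. Itgb3, the integrin beta 3 gene (chromosome 11, 104469370 to 104531790), was at 4.38 and 4.33 CPM with full-length ZNF384 and at 132 and 128 CPM with TCF3-ZNF384. It had the smallest adjusted p among abundant genes that rose, at a log2 fold change of 4.90 ± 0.13 (adjusted p = 2.56e-11). The gene of its partner chain, Itgav (chromosome 2, 83564554 to 83647073), was at 117 and 114 against 843 and 836 CPM (2.86 ± 0.10, adjusted p = 1.54e-10). Both genes were also above TAF15-ZNF384, by 2.44 ± 0.12 for Itgb3 (adjusted p = 9.82e-08) and 1.19 ± 0.10 for Itgav (adjusted p = 3.08e-06). Itgb1, the beta 1 chain, was at 75.1 and 65.2 against 140 and 142 CPM (1.01 ± 0.10, adjusted p = 2.74e-06). The alpha 4 gene Itga4, a chain that binds VCAM1 on stroma, went the other way, at 105 and 90.8 against 45.2 and 39.8 CPM (−1.21 ± 0.12, adjusted p = 2.47e-06). Of the 17 integrin and adhesion genes tested, 6 were higher and 7 lower, 76.5% called beside 45.6% of all genes tested. Their median log2 fold change was −0.02. That median turned to 0.22 without full-length ZNF384 replicate 2 and was −0.36 without replicate 1, and lay from −0.13 to −0.07 without either TCF3-ZNF384 or TAF15-ZNF384 library or empty vector replicate 2.

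Further genes were higher with TCF3-ZNF384 than in either control group. Igdcc3, of the immunoglobulin superfamily, was at 0.115 and 0.262 CPM with full-length ZNF384 and at 29.9 and 32.7 CPM with TCF3-ZNF384 (7.51 ± 0.27, adjusted p = 1.54e-10). The ion channel gene Trpa1 was at 0.0459 and 0.0874 CPM against 20.7 and 16.6 (8.13 ± 0.37, adjusted p = 2.24e-09), where the low group rests on 4 counts. Samd9l, an interferon-inducible antiviral gene, was at 26.8 and 31.7 CPM against 423 and 438 (3.88 ± 0.12, adjusted p = 8.43e-11). In all 3 genes the empty vector libraries were near those of full-length ZNF384, at 0.0403 to 0.156, 0.0806 to 0.235 and 28.2 to 31.7 CPM. The TAF15-ZNF384 libraries lay between, at 8.25 and 8.48, 0.952 and 0.979, and 106 and 114 CPM. Mctp2, a calcium-binding membrane protein gene, was at 4.15 and 5.55 against 91.8 and 93.6 CPM, and Rilpl2, a ciliary transport gene, at 33.8 and 37.7 against 309 and 305 CPM. Their log2 fold changes were 4.29 ± 0.15 and 3.10 ± 0.10 (adjusted p = 1.54e-10 and 1.37e-10). H60b, which encodes a ligand of the NK cell receptor NKG2D, had 2 counts with full-length ZNF384 and 172 with TCF3-ZNF384. The ratio of its counts was 194 (exact 95% interval 53 to 1620, counting error only), and reads of its near-identical relatives may be split between them.

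A list of 13 genes linked to human leukaemia with ZNF384 fusions had 6 members tested, of which 4 rose. Flt3, the receptor tyrosine kinase of early progenitors, was at 0.642 and 0.612 CPM with full-length ZNF384 and at 18.4 and 19.8 CPM with TCF3-ZNF384 (4.91 ± 0.22, adjusted p = 1.76e-09). Il2ra, the alpha chain of the interleukin 2 receptor (CD25), was at 10.7 and 15.5 against 172 and 164 CPM (3.70 ± 0.24, adjusted p = 7.42e-06). Clcf1, a cytokine of the interleukin 6 family, was at 0.367 and 0.175 against 5.71 and 10.4 CPM (4.77 ± 0.41, adjusted p = 7.94e-07). The libraries of the groups did not overlap for these 3 genes, as for 72.8% of all genes tested. Lgals1, which encodes galectin 1, was at 0.573 and 0.481 against 2.39 and 1.35 CPM (1.76 ± 0.58, adjusted p = 0.0237). Its call was lost without full-length ZNF384 replicate 1 (1.92), without replicate 2 (1.68), without TCF3-ZNF384 replicate 1 (1.35) and with every library thinned to the shallowest (1.537, adjusted p = 0.0757). The list's median was 2.73, but 1.78 without either TAF15-ZNF384 library and 1.35 without TCF3-ZNF384 replicate 1. Flt3 and Il2ra also exceeded TAF15-ZNF384, by 2.09 ± 0.19 (adjusted p = 1.06e-05) and 2.34 ± 0.24 (adjusted p = 0.000577), whereas Clcf1 did not pass that test (0.93 ± 0.34, adjusted p = 0.101).

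On the lower side, Gprin3, which encodes a G protein-regulated protein (chromosome 6, 59302455 to 59376284), was at 80.02 and 80.78 CPM with full-length ZNF384 and at 4.97 and 5.12 CPM with TCF3-ZNF384. Its log2 fold change of −3.99 ± 0.13 was the largest fall among genes of at least 5 CPM (adjusted p = 1.37e-10). Padi2, a peptidylarginine deiminase gene, was at 48.3 and 53.4 against 4.88 and 4.04 CPM (−3.53 ± 0.14, adjusted p = 5.83e-10). The RANKL gene Tnfsf11, a cytokine of the TNF family, was at 80.4 and 54.4 against 5.98 and 8.13 CPM (−3.23 ± 0.20, adjusted p = 3.24e-07). Bcl2, the founding inhibitor of apoptosis (chromosome 1, 108434755 to 108610851), fell from 354 and 389 CPM to 53.3 and 48.7 CPM (−2.87 ± 0.11, adjusted p = 5.83e-10). All 4 genes were lower than in the empty vector libraries too, which had 176 and 153 CPM of Bcl2 and 53.3 and 44.8 CPM of Gprin3. They were also lower than with TAF15-ZNF384, by −0.82 ± 0.16 for Gprin3 (adjusted p = 0.00517) and −0.90 ± 0.11 for Bcl2 (adjusted p = 0.000156). Elovl6, a fatty acid elongase gene, was at 710 and 569 against 128 and 124 CPM (−2.34 ± 0.12, adjusted p = 5.44e-09). Enpep, an aminopeptidase gene whose product is the early B-cell antigen BP-1, was at 584 and 593 against 162 and 157 CPM (−1.88 ± 0.09, adjusted p = 5.52e-09).

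**Figure D2:**
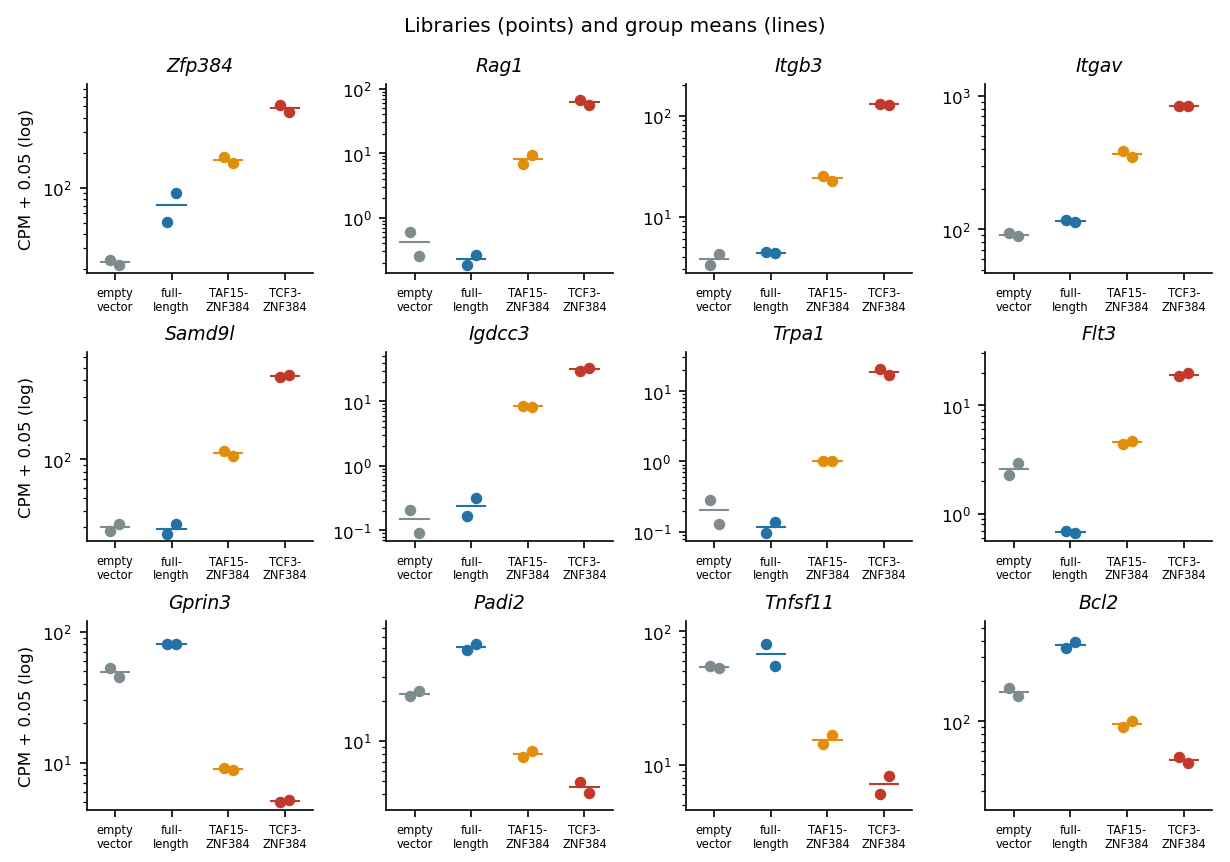
CPM (plus 0.05, log axis) of 12 genes in the 8 libraries, 2 points a group with a line at the mean. In the 4 genes of the bottom row the full-length ZNF384 points stand highest by group mean and the TCF3-ZNF384 points lowest, and in the other 8 the TCF3-ZNF384 points stand highest.

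B lineage genes moved in both directions. Of 33 tested, 15 rose, 11 fell and 7 did not pass, and the median log2 fold change was 0.21 against 0.00 over all genes tested. It was 0.49 without full-length ZNF384 replicate 2 and 0.40 without TCF3-ZNF384 replicate 1. Among the members that rose, the transcription factor gene Sox4 was at 299.5 and 346 against 579 and 618 CPM (0.89 ± 0.10, adjusted p = 8.53e-06) and Myb, another transcription factor gene, at 74.2 and 98.1 against 181 and 187 CPM (1.10 ± 0.13, adjusted p = 1.37e-05). Vpreb2 and Igll1, genes of the surrogate light chain that pairs with the heavy chain in the pre-B cell receptor, went down. Vpreb2 was at 268 and 361 against 73.5 and 77.1 CPM (−2.06 ± 0.14, adjusted p = 7.11e-08), with reads that may be shared with its close relative Vpreb1. Igll1 was at 974 and 971 against 481 and 487 CPM (−1.01 ± 0.09, adjusted p = 1.73e-06). Blk, a kinase that acts downstream of that receptor, was at 355 and 388 against 105 and 122 CPM (−1.71 ± 0.11, adjusted p = 3.78e-08). Cd93, a marker of immature B cells, was at 1887 and 1922 against 855 and 831 CPM (−1.18 ± 0.09, adjusted p = 3.32e-07). Cd79a, of the receptor's signalling pair, was at 659 and 707 against 746 and 729 CPM and did not pass (0.11 ± 0.10, adjusted p = 0.375). With library totals outside the 5 non-coding genes as the scale it was called higher (0.274, adjusted p = 0.0207), as was Pax5 (0.244, adjusted p = 0.0264), which otherwise did not pass (0.08 ± 0.09, adjusted p = 0.504).

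Among 12 genes of V(D)J recombination, 4 rose and 3 fell (median 0.05). The share called was 58.3%, beside 45.6% of all genes tested. Beside Rag1 and Rag2, Dntt, which encodes the polymerase that adds untemplated bases at joints, was at 9.49 and 18.0 CPM against 60.7 and 53.5 (2.08 ± 0.28, adjusted p = 0.000613). Xrcc6, the Ku70 end-joining gene, was at 54.4 and 70.9 against 188 and 177 CPM (1.55 ± 0.12, adjusted p = 3.24e-07). Its partner Xrcc5 (Ku80) fell, at 177 and 141 against 97.6 and 86.0 CPM (−0.80 ± 0.12, adjusted p = 0.000104). The other falls were small, at −0.39 ± 0.09 for Prkdc and −0.53 ± 0.16 for Poll, and both calls were lost without TCF3-ZNF384 replicate 1 (−0.36 and −0.55). The Poll call was also lost without full-length ZNF384 replicate 2 (−0.44) and without TCF3-ZNF384 replicate 2 (−0.48), with DESeq2 (−0.528, adjusted p = 0.0687), with library totals as the scale (−0.369, adjusted p = 0.108) and with every library thinned to the shallowest (−0.448, adjusted p = 0.103). The list's median was 0.12, 0.01 and 0.15 without full-length ZNF384 replicate 2, TCF3-ZNF384 replicate 1 and TCF3-ZNF384 replicate 2.

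Signalling genes downstream of the pre-B cell receptor were also mixed, with 10 of 24 higher and 5 lower (Btk, Ptpn6, Plcg2, Vav1 and Prkcb), and a median of 0.16. The share called was 62.5%, beside 45.6% of all genes tested. Rasgrp1, a Ras activator, was at 45.3 and 65.3 against 292 and 286 CPM (2.39 ± 0.15, adjusted p = 1.18e-07). Pik3r1, the regulatory subunit of PI3-kinase, was at 79.1 and 79.6 against 261 and 270 CPM (1.74 ± 0.09, adjusted p = 1.17e-08). Bcl6, a repressor that supports pre-B cell survival, was at 13.9 and 16.6 against 34.6 and 36.9 CPM (1.24 ± 0.12, adjusted p = 2.57e-06). The empty vector libraries had 34.7 and 39.3 CPM of Bcl6. Against them TCF3-ZNF384 did not pass (−0.05, adjusted p = 0.797) and full-length ZNF384 was lower (−1.29, adjusted p = 9.44e-06). The kinase gene Btk (−0.59 ± 0.12, adjusted p = 0.00152) and the phosphatase gene Ptpn6 (−0.88 ± 0.16, adjusted p = 0.000655) fell. In the E protein and Id network 9 of 18 rose and 2, Gfi1 and Id3, fell (61.1% called, median 0.31). Tcf4, which encodes a second E protein, was at 42.6 and 55.7 against 141 and 125 CPM (1.44 ± 0.13, adjusted p = 9.28e-07), and was above TAF15-ZNF384 by 1.26 ± 0.13 (adjusted p = 2.60e-05). Gfi1b, a repressor gene, rose by 1.01 ± 0.11 (adjusted p = 5.34e-06) and its relative Gfi1 fell (−1.25 ± 0.13, adjusted p = 6.63e-06). The Id3 call (−0.41 ± 0.13, adjusted p = 0.0220) was lost without full-length ZNF384 replicate 1 (−0.23) and without TCF3-ZNF384 replicate 1 (−0.24), with library totals as the scale (−0.235, adjusted p = 0.146) and with only the 4 libraries compared (−0.393, adjusted p = 0.0618). The median of the signalling list was 0.09 and 0.34 without full-length ZNF384 replicates 1 and 2, and 0.30 and 0.05 without TCF3-ZNF384 replicates 1 and 2. That of the E protein list was 0.55 without full-length ZNF384 replicate 2.

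In the BCL2 family, which controls cell death, 5 of 12 tested members were higher and 2, Bcl2 and Bid, lower. The share called was 58.3%, beside 45.6% of all genes tested. The effector gene Bax was among the higher ones (0.31 ± 0.11, adjusted p = 0.0275). Its call was lost without either empty vector library (0.301 each), full-length ZNF384 replicate 2 (0.246), TCF3-ZNF384 replicate 1 (0.37) or TCF3-ZNF384 replicate 2 (0.278), and with only the 4 libraries compared (0.324, adjusted p = 0.0544). The other 4 higher genes encode BH3-only proteins, which oppose BCL2. Bid is of the same class and fell (−0.88 ± 0.19, adjusted p = 0.00173). Bmf was at 7.04 and 17.7 CPM with full-length ZNF384 and at 64.4 and 75.1 CPM with TCF3-ZNF384 (2.55 ± 0.40, adjusted p = 0.00388). Pmaip1 (NOXA) was at 12.3 and 14.5 against 37.6 and 53.03 CPM (1.78 ± 0.19, adjusted p = 2.13e-05), and Bbc3 (PUMA) at 13.1 and 16.3 against 33.6 and 40.8 CPM (1.36 ± 0.13, adjusted p = 2.30e-06). Bcl2l11 (BIM) was at 10.1 and 11.4 against 19.9 and 23.4 CPM (1.03 ± 0.17, adjusted p = 0.000273). Against the empty vector, Bbc3 (−0.24, adjusted p = 0.162) and Bcl2l11 (−0.02, adjusted p = 0.935) did not pass with TCF3-ZNF384, while with full-length ZNF384 they were at −1.60 (adjusted p = 3.16e-06) and −1.05 (adjusted p = 0.000619). The median of the family was −0.01, moved to 0.13 and −0.15 without full-length ZNF384 replicates 2 and 1 and to 0.06 and −0.03 without TCF3-ZNF384 replicates 2 and 1, and was −0.02 without any other library.

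Ccnd3, the cyclin D3 gene that pre-B cell division depends on, fell from 250.02 and 263 CPM to 90.9 and 94.5 CPM (−1.47 ± 0.10, adjusted p = 1.00e-07). Cdkn2b, the p15 inhibitor of the kinases that cyclin D binds, was at 2.59 and 3.23 against 8.93 and 12.4 CPM (1.92 ± 0.21, adjusted p = 7.36e-06). In the list of cyclins and their inhibitors 9 of 14 members rose and 3, Ccnd3 and the kinase genes Cdk4 and Cdk6, fell (median 0.5). Socs2, a feedback gene of cytokine signalling, was at 1163 and 1136 against 614 and 598 CPM (−0.92 ± 0.09, adjusted p = 3.79e-06). It belongs to the interleukin 7 and JAK-STAT list, in which 3 of 23 members rose (Jak2, Tyk2 and Sh2b3) and 5 fell, among them Bcl2, Ccnd3, Socs2 and Cish, with a median of 0.23. Its share called, 34.8%, was below the 45.6% of all genes tested. The 3 became 0, 9 and 1 without full-length ZNF384 replicate 1, full-length ZNF384 replicate 2 and TCF3-ZNF384 replicate 2, and the 5 became 3 without TCF3-ZNF384 replicate 1. The median was 0.12 without full-length ZNF384 replicate 1 and 0.09 without TCF3-ZNF384 replicate 2.

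In several programmes the full-length ZNF384 libraries stood apart from the other 6. Immediate early genes, which signals switch on within minutes, rose in 25 of 27 tested cases, all but Nr4a1 and Rhob, with a median log2 fold change of 1.99. The list summed to 658.2 and 848.8 CPM with full-length ZNF384, 2174 and 2931 with TCF3-ZNF384 and 2177 and 3081 with the empty vector. Its median against the empty vector was −0.33 for TCF3-ZNF384 and −2.30 for full-length ZNF384, comparisons that share the empty vector libraries. Fos, of the AP-1 factor, was at 0.986 and 1.748 CPM with full-length ZNF384 and at 25.04 and 39.4 with TCF3-ZNF384 (4.67 ± 0.55, adjusted p = 0.00128). Jun, its partner, was at 30.1 and 53.2 against 318 and 533 CPM (3.37 ± 0.52, adjusted p = 0.00506). Without full-length ZNF384 replicate 1 the calls of Fos (4.24) and Jun (3.02) were lost and 15 members were higher. Zfp36, which encodes an mRNA decay factor, was at 87.3 and 108 against 186 and 232 CPM (1.10 ± 0.15, adjusted p = 6.64e-05). Snai1, a repressor gene, had 3 counts with full-length ZNF384 and 114 with TCF3-ZNF384, a ratio of 85.8 (exact 95% interval 28.6 to 422). The share of the 5 non-coding RNA genes, 10.9 and 12.5% against 18.5 and 24.5%, differed between the same libraries, and its part in these changes was not tested.

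Krüppel-like factor genes were higher for 8 of 11 members and lower for 1, Klf16 (median 0.86). Klf2, which keeps lymphocytes quiescent, was at 0.871 and 2.053 CPM with full-length ZNF384 and at 151 and 179 CPM with TCF3-ZNF384 (6.96 ± 0.54, adjusted p = 0.000228). The empty vector libraries were in the middle at 31.8 and 65.0 CPM. Klf3 was at 0.183 and 0.175 against 9.76 and 9.58 CPM (5.70 ± 0.41, adjusted p = 1.35e-07). Without full-length ZNF384 replicate 1, 2 members were lower. NF-kB and inflammatory genes rose in 15 of 15 tested cases (median 1.4). Il10, a cytokine gene without any full-length ZNF384 count, was at least 50.5-fold higher, and the median is the same with Il10 at that bound. Relb, a subunit of the non-canonical NF-kB pathway, was at 1.31 and 2.053 against 13.6 and 15.6 CPM (3.19 ± 0.23, adjusted p = 1.35e-07). Its partner Nfkb2 was at 4.95 and 4.94 against 23.2 and 24.0 CPM (2.26 ± 0.14, adjusted p = 3.53e-08). Nfkbia, the inhibitor that NF-kB itself induces, was at 95.7 and 112 against 296 and 387 CPM (1.72 ± 0.13, adjusted p = 3.62e-07). The survival gene Birc3 was at 33.9 and 34.9 against 99.0 and 93.4 CPM (1.48 ± 0.10, adjusted p = 6.98e-08). The list's medians against the empty vector were 0.35 with TCF3-ZNF384 and −1.08 with full-length ZNF384.

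Of the p53 pathway genes 15 of 27 rose and 1, the metabolic gene Tigar, fell (median 0.44, and 0.67 without full-length ZNF384 replicate 2). They include the cycle inhibitor Cdkn1a, at 18.7 and 22.9 against 29.9 and 32.4 CPM (0.59 ± 0.12, adjusted p = 0.00134), and the antiproliferative Btg2, at 86.6 and 160 against 597 and 676 CPM (2.37 ± 0.27, adjusted p = 0.000422). Sesn2, a stress-induced gene, was at 28.6 and 46.3 against 63.7 and 72.4 CPM (0.88 ± 0.18, adjusted p = 0.00321; 0.58 without full-length ZNF384 replicate 1). The empty vector libraries, at 92.8 and 86.9 CPM of Sesn2, stood above both groups. MHC class I genes, which present peptides to T cells, rose for 8 of 13 members and fell for 2, Tap2 and Erap1 (median 0.61). H2-K1 was at 95.4 and 140 against 355 and 425 CPM (1.74 ± 0.20, adjusted p = 0.000165), H2-D1 at 697 and 885 against 1288 and 1486 CPM (0.81 ± 0.12, adjusted p = 8.42e-05). These genes have near-identical relatives whose reads the counting could split. The median was 0.36 and 0.92 without full-length ZNF384 replicates 1 and 2. The 2 falls became 0 without either TCF3-ZNF384 library and 1 without any of the other 6.

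Glycolysis genes were lower with TCF3-ZNF384 for 14 of 20 tested, with a median log2 fold change of −1.15. The list summed to 4908 and 4986 CPM with full-length ZNF384, 3777 in each TCF3-ZNF384 library and 4423 and 4291 with the empty vector. Much of each sum came from Slc16a1, at 2571 and 2129 CPM with full-length ZNF384 and 2906 and 2879 with TCF3-ZNF384. With the empty vector Slc16a1 was at 3089.5 and 3006 CPM. It was thus lower with full-length ZNF384 than with TCF3-ZNF384 or the empty vector, while the list's sum was higher, so the differences between these sums do not follow that gene. The list's median against the empty vector was −0.44 with TCF3-ZNF384 and 0.55 with full-length ZNF384. Pfkl, the liver-type phosphofructokinase, was at 327 and 404 against 81.4 and 90.5 CPM (−2.09 ± 0.12, adjusted p = 1.55e-08). Pgk1, phosphoglycerate kinase, was at 303 and 393 against 95.1 and 85.3 CPM (−1.95 ± 0.12, adjusted p = 4.71e-08). The isomerase gene Tpi1 was at 171 and 244 against 50.1 and 56.0 CPM (−1.96 ± 0.14, adjusted p = 2.17e-07), and Pfkp, the platelet-type phosphofructokinase, at 97.6 and 121 against 28.1 and 29.2 CPM (−1.93 ± 0.12, adjusted p = 2.97e-08). Against the empty vector, Pfkl was at −0.24 with TCF3-ZNF384 (adjusted p = 0.121) and at 1.85 with full-length ZNF384 (adjusted p = 1.21e-06). Pfkp differed from it in both groups, at −1.15 (adjusted p = 4.75e-06) and 0.77 (adjusted p = 0.000258). The lactate transporter gene Slc16a1 (0.30 ± 0.10, adjusted p = 0.0283) and the regulatory gene Pfkfb4 (1.03 ± 0.37, adjusted p = 0.0334) rose. Both calls were lost without TCF3-ZNF384 replicate 2 (0.316 and 0.497), and 1 of the 2 was lost without any other library. With only the 4 libraries compared, neither held (0.313, adjusted p = 0.0775, and 1.031, adjusted p = 0.0549). The Pfkfb4 call was also lost with DESeq2 (1.003, adjusted p = 0.0597) and with every library thinned to the shallowest (0.502, adjusted p = 0.346).

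Cholesterol synthesis and uptake genes were lower for 19 of 23 tested (median −0.91), and Mvk, Tm7sf2, Ebp and Insig1 did not pass. The list summed to 2566 and 2609 CPM with full-length ZNF384, 1316 and 1299 with TCF3-ZNF384 and 1523 and 1750 with the empty vector. Nsdhl, which encodes a sterol dehydrogenase of the pathway, was at 81.4 and 83.9 against 32.8 and 28.2 CPM (−1.45 ± 0.11, adjusted p = 1.82e-07). Stard4, a cholesterol transport gene, was at 216 and 204 against 85.6 and 80.4 CPM (−1.34 ± 0.09, adjusted p = 1.15e-07). Against the empty vector the list's median was −0.30 with TCF3-ZNF384 and 0.70 with full-length ZNF384.

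Genes of protein folding in the endoplasmic reticulum were lower for 14 of 22 and higher for 2, Dnajb9 and Ero1lb (median −0.47). With library totals as the scale, 5 members were higher and the median was −0.30. Sdf2l1, a chaperone cofactor, was at 186 and 132 against 30.3 and 30.9 CPM (−2.38 ± 0.14, adjusted p = 2.77e-08), and the disulphide isomerase gene Pdia4 at 258 and 209 against 109.8 and 108 CPM (−1.10 ± 0.11, adjusted p = 2.82e-06). The co-chaperone gene Dnajb9, at 13.5 and 12.9 against 36.3 and 49.5 CPM, went the other way (1.71 ± 0.18, adjusted p = 1.48e-05).

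**Figure D3:**
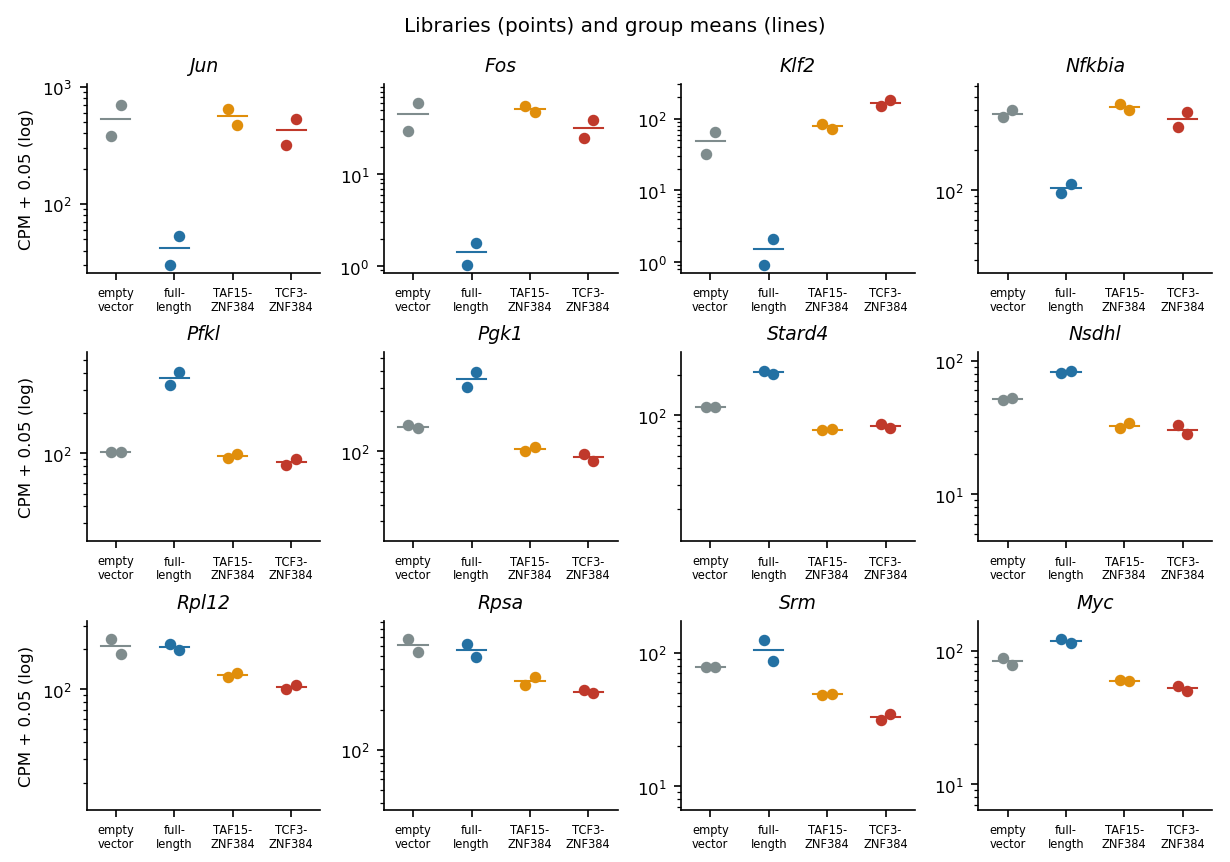
CPM (plus 0.05, log axis) of 12 genes from the programmes described, in the 8 libraries, 2 points a group with a line at the mean. The full-length ZNF384 points are the lowest for the 4 genes of the top row and the highest for the 4 of the middle row, and in the bottom row the TCF3-ZNF384 means are the lowest.

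Cytosolic ribosomal protein genes were lower for 42 of 43 tested, all but Rpl24, with members from −1.54 to −0.26. Their median log2 fold change was −0.87, but −0.68 and −0.98 without full-length ZNF384 replicates 1 and 2. They summed to 19940 and 16810 CPM with full-length ZNF384 and to 10720 and 10570 CPM with TCF3-ZNF384. The empty vector libraries, at 20310 and 17260 CPM, were near full-length ZNF384, and the TAF15-ZNF384 libraries, at 11170 and 11920, near TCF3-ZNF384. Rplp1, of the ribosomal stalk, was at 4498 and 4513 against 2715 and 2649 CPM (−0.75 ± 0.10, adjusted p = 2.98e-05; −0.47 with a trend on exon length removed). Rpsa, of the small subunit, was at 623 and 499.8 against 279.99 and 265 CPM (−1.04 ± 0.13, adjusted p = 3.01e-05), and Rpl12 at 219 and 197 against 101 and 108 CPM (−0.997 ± 0.12, adjusted p = 2.32e-05). Ribosomal protein genes have many processed pseudogenes that can share their reads.

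MYC targets and ribosome biogenesis genes were lower for 31 of 31 (median −0.83). Myc itself was at 123 and 115 against 54.9 and 49.97 CPM (−1.19 ± 0.10, adjusted p = 8.12e-07). Srm, spermidine synthase, was at 124 and 86.2 against 31.4 and 34.7 CPM (−1.67 ± 0.15, adjusted p = 1.14e-06). Npm1, a nucleolar chaperone, was at 147 and 119 against 62.8 and 60.7 CPM (−1.11 ± 0.11, adjusted p = 3.68e-06), and Polr1b, of RNA polymerase I, at 35.7 and 30.3 against 12.7 and 12.01 CPM (−1.43 ± 0.12, adjusted p = 9.28e-07). Here the empty vector lay between the groups, with list medians of −0.61 for TCF3-ZNF384 and 0.28 for full-length ZNF384 against it.

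Mitosis genes were lower for 23 of 26 (median −0.74). Ube2c, of the anaphase-promoting machinery, was at 246 and 177 against 87.3 and 72.5 CPM (−1.41 ± 0.16, adjusted p = 2.29e-05), and Ccnb2, cyclin B2, at 207 and 162 against 91.6 and 78.9 CPM (−1.12 ± 0.13, adjusted p = 1.44e-05). Mki67, the proliferation antigen Ki-67, was at 3502 and 3217 against 2223 and 2109.5 CPM (−0.63 ± 0.10, adjusted p = 0.000139). DNA replication genes were lower for 20 of 30 and higher for 1, the thymidine kinase gene Tk1 (0.41 ± 0.10, adjusted p = 0.00507), with a median of −0.41. Among the falls were Chaf1b, a chromatin assembly gene (−0.97 ± 0.12, adjusted p = 1.70e-05), and Mcm10, of the replication fork (−1.04 ± 0.14, adjusted p = 5.94e-05). The 20 became 12 without full-length ZNF384 replicate 1, where the median was −0.25, and 13 without either TCF3-ZNF384 library.

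Replication-dependent histone genes were lower for 34 of 37 (median −0.57), but for 22 without TCF3-ZNF384 replicate 1, and the median was −0.31 with a trend on exon length removed. They summed to 57200.0 and 50870 CPM with full-length ZNF384, 35190 and 38770 with TCF3-ZNF384 and 68180 and 66840 with the empty vector. Hist1h3g was at 1039 and 865 against 511 and 554 CPM (−0.84 ± 0.11, adjusted p = 3.10e-05), with near-identical relatives in the histone clusters. Nuclear genes of oxidative phosphorylation were lower for 22 of 36 (median −0.36), for 14 and 9 without TCF3-ZNF384 replicates 1 and 2, and for 10 with library totals as the scale, where the median was −0.19. Called genes also differed in length. The median exon length was 4026 bases for higher genes, 3201 for lower genes and 3482 for all tested genes with an annotation.

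**Figure D4:**
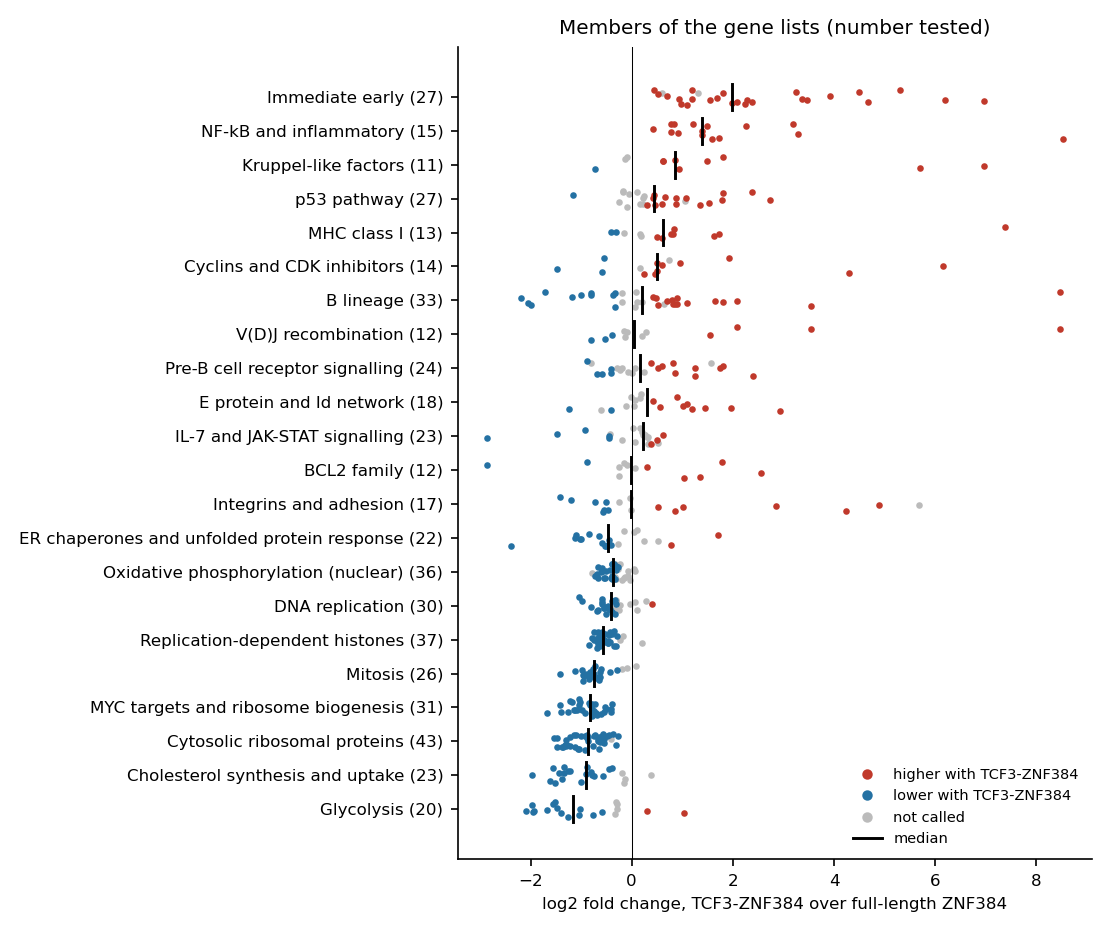
Log2 fold changes of TCF3-ZNF384 over full-length ZNF384 for the tested members of 22 gene lists, 1 point a gene, with a bar at each list's median. Red and blue points passed an adjusted p of 0.05, and the points of Il10, Ier3 and Vcam1 (not called), which had no count with full-length ZNF384, depend on the prior count of the fit. Blue points make up 31 of 31 MYC targets and 42 of 43 ribosomal protein genes, and red points 25 of 27 immediate early and 15 of 15 NF-kB genes.

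Some genes left the empty vector level in opposite directions in the 2 groups. Flt3 was at 2.23 and 2.86 CPM with the empty vector, and changed by −2.002 with full-length ZNF384 (adjusted p = 9.96e-05) and by 2.91 with TCF3-ZNF384 (adjusted p = 5.82e-08). Klf2 changed by −5.19 (adjusted p = 0.00216) and 1.77 (adjusted p = 0.0182), Ahnak, a large scaffold protein gene, by −2.41 (adjusted p = 0.00164) and 2.49 (adjusted p = 5.71e-05). Bcl2 did the reverse, at 1.18 with full-length ZNF384 (adjusted p = 7.66e-06) and −1.69 with TCF3-ZNF384 (adjusted p = 7.72e-08). So did Padi2, at 1.17 and −2.36 (adjusted p = 1.19e-05 and 4.66e-08), Elovl6, at 1.18 and −1.16 (adjusted p = 1.09e-05 and 3.41e-06), and Kbtbd11, at 1.11 and −1.23 (adjusted p = 1.77e-05 and 2.91e-06). These pairs of comparisons share the empty vector libraries.

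**Figure D5:**
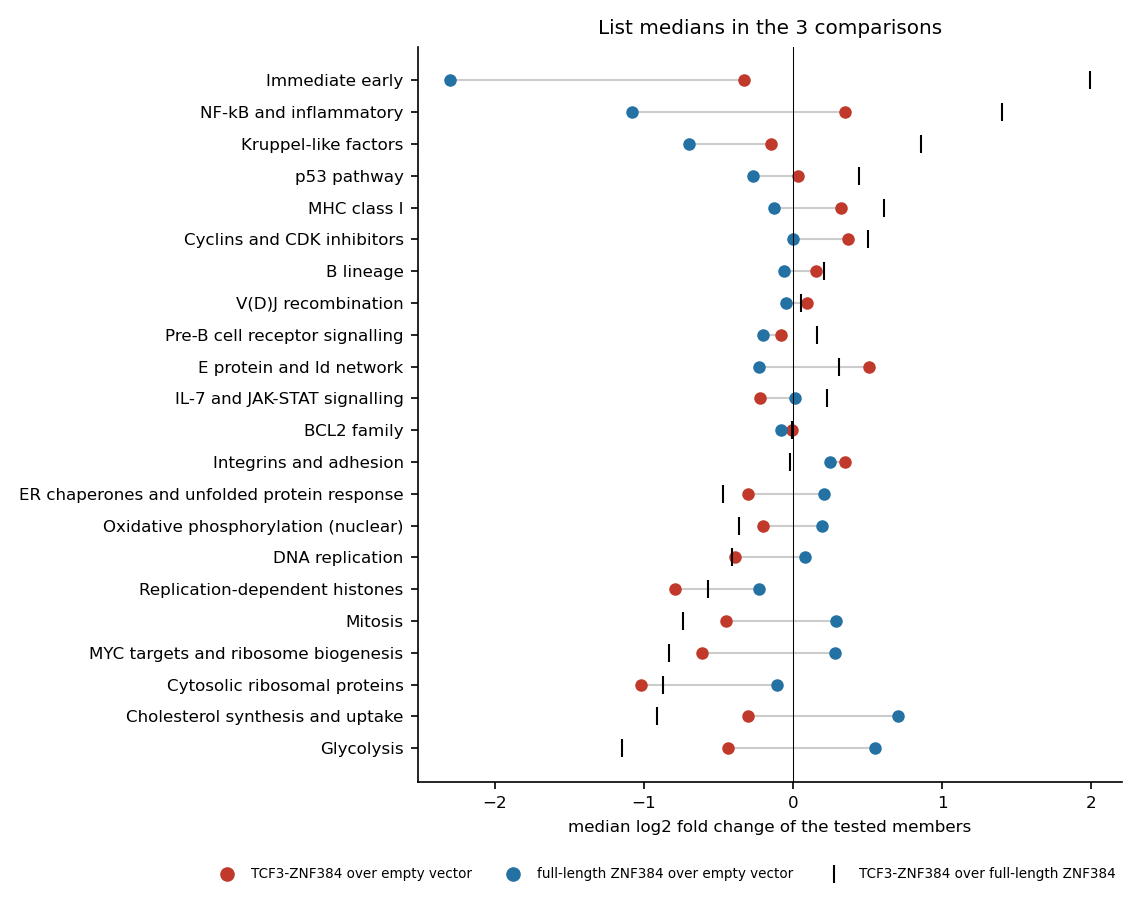
Median log2 fold change of the tested members of 22 gene lists for TCF3-ZNF384 over the empty vector (red), full-length ZNF384 over the empty vector (blue) and TCF3-ZNF384 over full-length ZNF384 (bars). The blue point of the immediate early list lies at −2.30 with the red at −0.33, whereas for ribosomal proteins the red lies at −1.02 and the blue at −0.11.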

How the data were processed

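Values are raw counts per gene that the authors deposited for 8 libraries, made with HTSeq 0.6.1p1 on mm9 per the submitters' processing notes. The labels' protocols describe a stranded total RNA kit, while neither aligner nor counting strand is stated (not given in the sources used here), so reads of a gene and an overlapping antisense gene may not be separated. The fit used edgeR 4.0.16 under R 4.3.3: filterByExpr by group (12970 of 32499 genes), TMM scaling, and a robust quasi-likelihood fit of 8 libraries with 1 term per group and 4 residual degrees of freedom. The contrast was tested 2-sided with Benjamini-Hochberg adjustment over all tested genes (threshold 0.05). The fit was tested on simulated data. CPM uses TMM-scaled sizes, and the median SE of a log2 fold change was 0.14. The members, gene lists and named genes were chosen with earlier results of these data known. Named genes are Zfp384, Tcf3, Taf15, Cdkn2a and a part of those taken by 4 rules: the 12 largest changes per direction without overlap at 5 CPM or more, the 6 smallest adjusted p per direction at 50 CPM or more, up to 4 members per direction of each list (and up to 3 not called), and the 5 per direction with the largest opposite changes from the empty vector. Genes without a proper name were left out of the rules on largest changes, smallest adjusted p and opposite changes. Fos, Jun, Mki67 and names that complete a count of 5 or fewer (such as Bax) were added after their values were seen. Coordinates are those of mm9 in GENCODE vM1, matched by symbol. Alternatives were DESeq2 1.42.0, limma-voom (limma 3.58.1), other scalings and filters, a replicate block, a fit of 4 libraries, thinning, each library left out and, added after seeing the data, removal of an exon length trend. Intervals and bounds cover counting error only, and where a group had no count, 3 counts in all served as its floor.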

Additional observations from a re-analysis of the deposited data

How the results depend on the processing

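The number of genes changed was 5079 with the DESeq2 Wald test, 5968 with limma-voom, 5119 with only the 4 libraries compared, 5170 with every library thinned to the shallowest, and 5288 with the exon length trend removed. Leaving out 1 library at a time gave 3866 to 6558 genes changed, 1934 to 3198 higher, 1932 to 3360 lower and 1350 to 2175 changed at least 2-fold. The lowest counts of changed, higher and lower genes came without TCF3-ZNF384 replicate 2. A lone library was then assumed to vary like the other groups. Replicate numbers do not pair the samples by any label: the deviations of same-numbered libraries of the 2 groups correlated at 0.069, and a replicate block gave 6111 genes changed (2976 higher, 3135 lower). Of the 120 genes whose values were recomputed under 19 alternatives, 118 were called, 104 of them in every alternative, no called gene changed sign, and 66 of 2277 gene and alternative pairs lost the call. Depth limits low genes: 1 count is a larger share of the TCF3-ZNF384 replicate 1 library (9583008 counts) than of any other library compared.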

Other observations

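Genes of the Notch pathway, through which neighbouring cells steer lymphoid fate, also differed between the groups: of 17 tested, 10 were higher with TCF3-ZNF384 and 5 lower, with a median log2 fold change of 0.79 (0.49 without TCF3-ZNF384 replicate 2). The ligand gene Dll1 was at 0.138 and 0.262 CPM with full-length ZNF384, 1.38 and 3.12 with TCF3-ZNF384 and 3.79 and 6.69 with the empty vector (3.65 ± 0.53, adjusted p = 0.000104). Hes1, a target gene of the pathway, was at 53.3 and 42.1 against 103 and 114 CPM (1.19 ± 0.13, adjusted p = 5.87e-06). The Deltex genes Dtx3 and Dtx4, which regulate the receptor, were also higher. Dtx3 was at 48.4 and 66.1 against 124 and 128 CPM (1.14 ± 0.13, adjusted p = 8.24e-06) and Dtx4 at 47.7 and 46.6 against 80.4 and 83.0 CPM (0.79 ± 0.10, adjusted p = 4.07e-05). The receptor gene Notch2 was lower, at 73.5 and 77.5 against 48.5 and 42.5 CPM (−0.73 ± 0.10, adjusted p = 6.64e-05), as was Mfng, which glycosylates the receptor, at 102 and 93.3 against 48.0 and 44.7 CPM (−1.08 ± 0.11, adjusted p = 3.71e-06). The 5 falls became 3 without either empty vector library, full-length ZNF384 replicate 2 or TCF3-ZNF384 replicate 2, and 2 without TCF3-ZNF384 replicate 1.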
